A study of Rattus norvegicus with 18 samples.

Results

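Genes of the smooth muscle contractile apparatus and of the actin-binding cytoskeleton were followed in rat liver cells exposed to PCB126. The 10 genes were named by symbol: Tagln, Acta2, Cnn1, Tpm1, Tpm2, Myl9, Cald1, Lcp1, Mybpc1 and Ablim3. Each was read from the probe sets that the platform annotation pairs with its symbol and no other, and their median gave the gene value per array. Such probe sets existed for 9 of the 10 genes, out of 16988 genes in all. Acta2, smooth muscle alpha-actin, had 0 probe sets under its symbol alone and was not analysed here.

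WB-F344 cells, an epithelial line from rat liver regarded as stem-like, were exposed when confluent, between passages 14 and 16. They received 100 nM PCB126, a dioxin-like polychlorinated biphenyl that binds the aryl hydrocarbon receptor, or 0.1% DMSO as control, for 6, 24 or 72 h. Each of the 6 groups held 3 arrays, described in the labels as independent repeats, and 18 Affymetrix rat exon arrays were used in all. Whether these came from separate passages is not stated, and the p-values below cover no more than the spread among these 18 samples. The values are on a log2 scale of background-corrected, normalised probe signal, on which a difference of 1 is a doubling. A gene was called changed at an adjusted p under 0.05 (limma, Benjamini-Hochberg adjustment over all 16988 genes).

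In smooth muscle, contraction follows phosphorylation of the myosin regulatory light chain, and tropomyosin, caldesmon and calponin lie along the thin filament and restrain the myosin motor. Transgelin, calponin and smooth muscle actin are classical markers of the contractile state, and many of their genes carry CArG boxes, at which serum response factor acts with myocardin-related cofactors. Cells other than muscle use forms of the same proteins for stress fibres and adhesion, and liver cells that take on a mesenchymal or myofibroblast character are known to raise several of them.

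The array medians over the 16988 genes lay between 6.19 and 6.54, and the SD of the differences between 2 replicates ranged from 0.352 to 0.518, highest among the PCB126 arrays at 72 h. Of markers of the liver epithelial line, Vim (mean 12.59), Gja1 (9.73), Krt8 (8.09), Krt19 (6.09), Cdh1 (4.71) and Krt18 (4.58) lay above the median probe set level of 4.03, while Alb (3.47), Afp (3.48) and Epcam (2.25) lay below it. Only 3 of these 9 markers, Vim, Gja1 and Krt8, also lay above the median gene level, which is higher. Krt19 was lower with PCB126 at 6 h (log2 change -1.01), and at 24 h Krt19 (-0.95) and Krt18 (-0.69) were lower and Vim higher (0.67). At 72 h Vim (1.15) and Krt8 (1.08) were higher and Krt19 was lower (-1.37), all by limma (adjusted p under 0.05). The calls of Krt19 at 6 h and Krt18 at 24 h ended when any single array was left out, with adjusted p up to 0.159 and 0.0973. That of Krt19 at 24 h ended without replicate 1 of DMSO (0.0511).

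Among the 9 measured genes, 1 was called against DMSO at 6 h, 2 at 24 h and 4 at 72 h. Over all genes the share called was 0.494% at 6 h (0.253% higher and 0.241% lower), 4.84% at 24 h (1.7% higher and 3.14% lower) and 7.44% at 72 h (3.3% higher and 4.14% lower). The calls among the 9 genes went both ways. Ablim3 was higher at all 3 times, Tagln was higher at 72 h, Mybpc1 was lower at 24 and 72 h, and Cald1 was lower at 72 h. Cnn1, Tpm1, Tpm2, Myl9 and Lcp1 did not pass the test at any time, and the median change over the 9 genes was -0.02, -0.01 and -0.04 at 6, 24 and 72 h, beside -0.01, -0.02 and 0.00 over all genes.

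**Figure D1:**
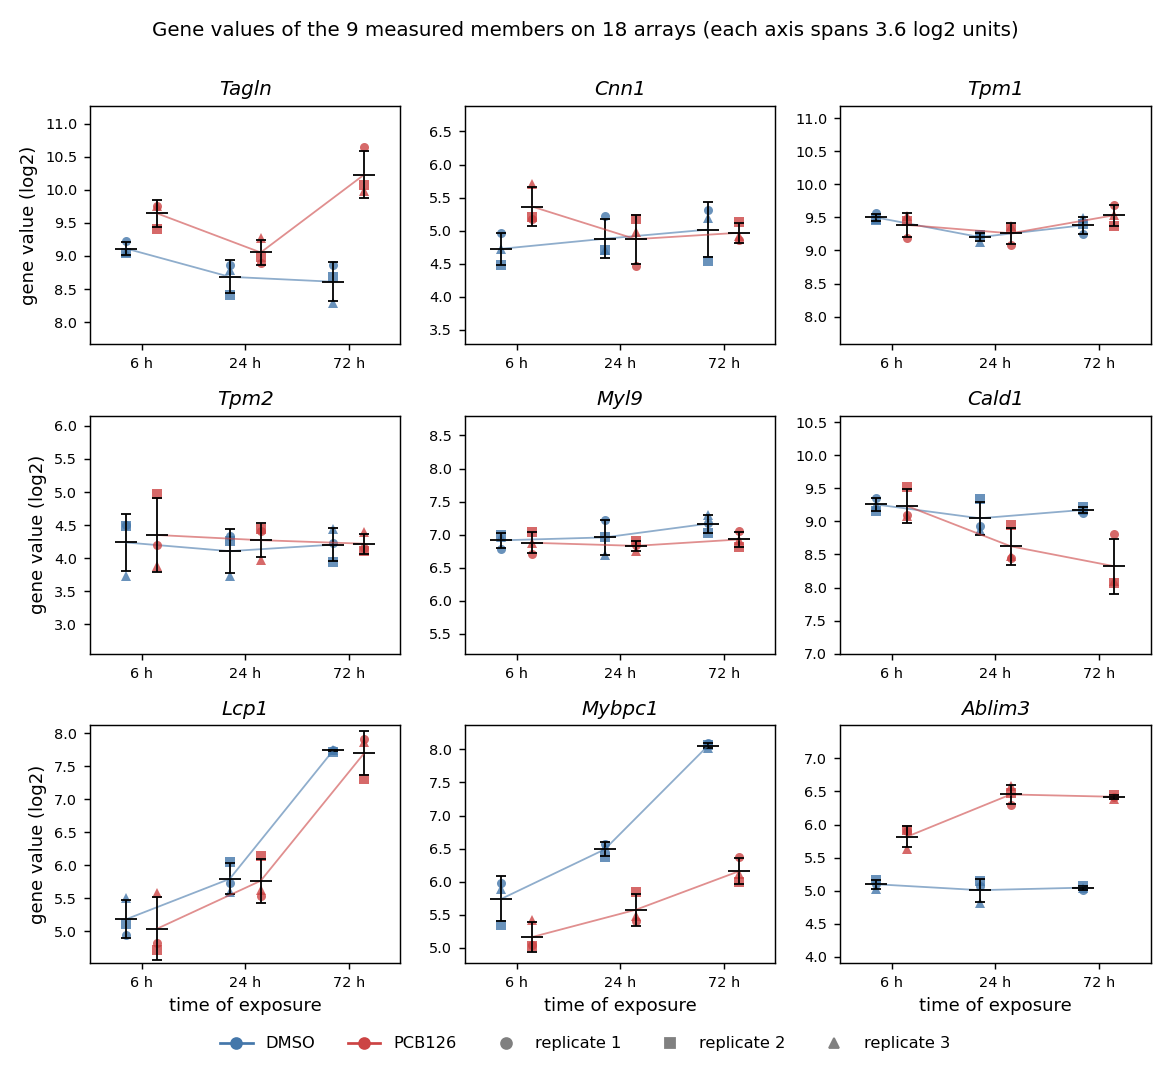
Gene value (log2) of the 9 measured genes on each of the 18 arrays against time of exposure. Blue is DMSO and red PCB126, symbols mark replicates, bars are the mean ± SD (n = 3), and every panel spans the same number of log2 units. The treatments part in opposite directions for Ablim3 and Mybpc1. Tagln with PCB126 lies above DMSO at each time, farthest at 72 h, and Cald1 with PCB126 lies below DMSO at 72 h. Lcp1 climbs to means of 7.74 with DMSO and 7.70 with PCB126 at 72 h.

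Promoter sequence is shown for Ablim3 and Mybpc1, the called genes whose values moved apart in opposite directions, and for Cnn1, which holds a searched motif although it was not called. The 250 bases before the annotated start were taken from RefSeq (GRCr8) at chr18:57646711-57646960 (minus strand) for Ablim3, chr7:24903374-24903623 (minus strand) for Mybpc1 and chr8:28908187-28908436 (plus strand) for Cnn1. They are printed 5′ to 3′ along the gene, and capitals mark a match to GCGTG, the core at which the ligand-bound aryl hydrocarbon receptor acts, here read on the opposite strand.
Ablim3: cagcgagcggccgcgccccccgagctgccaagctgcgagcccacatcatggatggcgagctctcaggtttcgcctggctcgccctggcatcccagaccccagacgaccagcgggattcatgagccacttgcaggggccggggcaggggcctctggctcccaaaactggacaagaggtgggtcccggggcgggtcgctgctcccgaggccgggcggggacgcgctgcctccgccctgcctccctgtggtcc
Mybpc1: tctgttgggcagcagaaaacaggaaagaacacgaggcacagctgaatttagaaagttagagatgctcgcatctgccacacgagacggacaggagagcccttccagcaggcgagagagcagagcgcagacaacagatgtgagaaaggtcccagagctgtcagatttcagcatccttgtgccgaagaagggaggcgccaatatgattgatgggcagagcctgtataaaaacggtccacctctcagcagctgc
Cnn1: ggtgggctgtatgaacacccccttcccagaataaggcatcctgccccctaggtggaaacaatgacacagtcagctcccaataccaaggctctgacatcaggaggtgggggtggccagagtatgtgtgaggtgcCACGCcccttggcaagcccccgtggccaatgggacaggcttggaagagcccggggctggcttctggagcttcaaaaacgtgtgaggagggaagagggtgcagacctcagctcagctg

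The RefSeq table held windows for 6 of the 9 measured genes (7 windows, with 2 starts for Cald1). Both strands were searched for GCGTG and for the CArG box, taken as CC, then 6 bases of A or T, then GG. GCGTG occurred in 2 of these genes, Cnn1 (first base 117 before the start) and Tpm1 (140 before the start), neither of which was called against DMSO. Of all 33469 RefSeq windows of this length 25.9% held it. The windows of Ablim3, Mybpc1, Tpm2 and Cald1 did not hold these letters. A CArG box of this exact form occurred in none of the 7 windows and in 1.50% of all windows. Looser forms were not searched, and Tagln, Myl9 and Lcp1 had no window.

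Among the thin-filament genes, Tagln encodes transgelin (SM22), which binds and stabilises actin filaments. At 72 h its values were 8.86, 8.68 and 8.29 on the DMSO arrays and 10.64, 10.07 and 9.98 on the PCB126 arrays. All 3 treated values lay above all 3 controls. Tagln was 3.07-fold higher with PCB126 (log2 change 1.62, SE 0.195, limma adjusted p = 4.28e-05). Replicate 1 was the highest treated array, and without it the change was 1.41 (limma adjusted p = 0.000212).

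Earlier the difference in Tagln was smaller. At 6 h its values were 9.22, 9.05 and 9.06 with DMSO and 9.76, 9.41 and 9.76 with PCB126, and at 24 h they were 8.87, 8.40 and 8.78 with DMSO and 8.90, 8.99 and 9.27 with PCB126. The treated arrays lay above the controls at both times, but neither change passed the test (0.53 and 0.37, limma adjusted p = 0.412 and 0.402). In order of group mean, DMSO at 72 h (8.61 ± 0.30, SD, n = 3) and at 24 h (8.68 ± 0.25) overlapped, as did PCB126 at 24 h (9.05 ± 0.19) and DMSO at 6 h (9.11 ± 0.09). PCB126 at 6 h (9.64 ± 0.20) and at 72 h (10.23 ± 0.36) stood above these and apart from each other. Each of the 5 Tagln probe sets was higher with PCB126 at 72 h, by 0.98 to 1.64. The gain in the Tagln effect from 6 to 72 h was 1.09 (SE 0.275) and was not called (limma adjusted p = 0.0807). Over the same time the difference in Tagln was 0.59 with PCB126 (limma adjusted p = 0.0972) and -0.50 with DMSO (adjusted p = 0.168), neither of which passed. The former passed under 3 of 11 other settings, and its adjusted p ranged from 0.00905 to 0.285.

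Cald1 encodes caldesmon, which holds back the myosin ATPase on actin filaments. At 72 h its values were 9.13, 9.23 and 9.17 with DMSO and 8.80, 8.07 and 8.09 with PCB126. The DMSO arrays lay close together and above all 3 treated arrays, of which replicate 1 was the nearest to them. Cald1 was 1.81-fold lower with PCB126 (log2 change -0.85, SE 0.201, limma adjusted p = 0.0138). The call ended without replicate 2 or 3 of PCB126 at 72 h (limma adjusted p = 0.0627 and 0.0664), while without replicate 1 the change was -1.09. It also ended when the DMSO and PCB126 arrays at 72 h were fitted alone (adjusted p = 0.0999).

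At 6 h the Cald1 means were 9.26 ± 0.10 with DMSO and 9.23 ± 0.25 with PCB126 (SD, n = 3), a change of -0.02 with a 95% interval of -0.45 to 0.40. At 24 h they were 9.05 ± 0.25 and 8.62 ± 0.28, with overlapping arrays and a change of -0.42 (limma adjusted p = 0.328). In order of group mean, each group's values overlapped those of its neighbour, from 8.32 ± 0.42 with PCB126 at 72 h up to DMSO at 6 h. Of the 16 Cald1 probe sets above the median probe set level, 15 were lower at 72 h, with changes from -1.35 to 0.03, and the 2 dimmer ones were higher (0.45 and 0.57).

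Cnn1, basic calponin and a late marker of the contractile state, was measured by 7 probe sets of which 6 lay above the median probe set level. At 6 h its values were 4.96, 4.48 and 4.73 with DMSO and 5.18, 5.21 and 5.70 with PCB126. The treated arrays lay higher, but the change of 0.64 did not pass (limma adjusted p = 0.412). Its probe sets disagreed there, since 4 of the 6 brighter ones were lower with PCB126 and their median change was -0.25. At 24 and 72 h the groups overlapped and the changes were -0.01 (95% interval -0.50 to 0.49) and -0.05 (-0.54 to 0.45).

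Tpm1 and Tpm2 encode the alpha and beta chains of tropomyosin, the coiled coil that lies in the actin groove and gates myosin binding. Tpm1 lay between 9.08 and 9.69 on all 18 arrays, and treated and control arrays overlapped at every time. Its changes were -0.11, 0.06 and 0.15 at 6, 24 and 72 h, and the 95% interval at 72 h was -0.12 to 0.42. Its probe sets were mostly lower with PCB126. At 6 h 21 of the 22 were lower (median change -0.30), and at 24 and 72 h 16 of 22. The mean over probe sets gave changes of -0.13 at 24 h and -0.12 at 72 h, opposite in sign to the gene values. Tpm2 lay between 3.73 and 4.98, near the median probe set level, with 5 of its 13 probe sets below that level. Its changes were 0.11, 0.17 and 0.01, with a 95% interval at 72 h of -0.55 to 0.58. Tropomyosin genes resemble one another in sequence, so their probe sets are uncertain where they could cross-hybridise.

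Myl9 encodes the myosin regulatory light chain of smooth muscle and non-muscle cells. At 72 h its values were 7.18, 7.02 and 7.30 with DMSO and 7.05, 6.81 and 6.93 with PCB126. The groups overlapped, and the change of -0.24 did not pass (95% interval -0.54 to 0.06, limma adjusted p = 0.404). At 6 and 24 h the changes were -0.04 and -0.13, and at 6 h the mean over probe sets had the opposite sign (0.26).

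**Figure D2:**
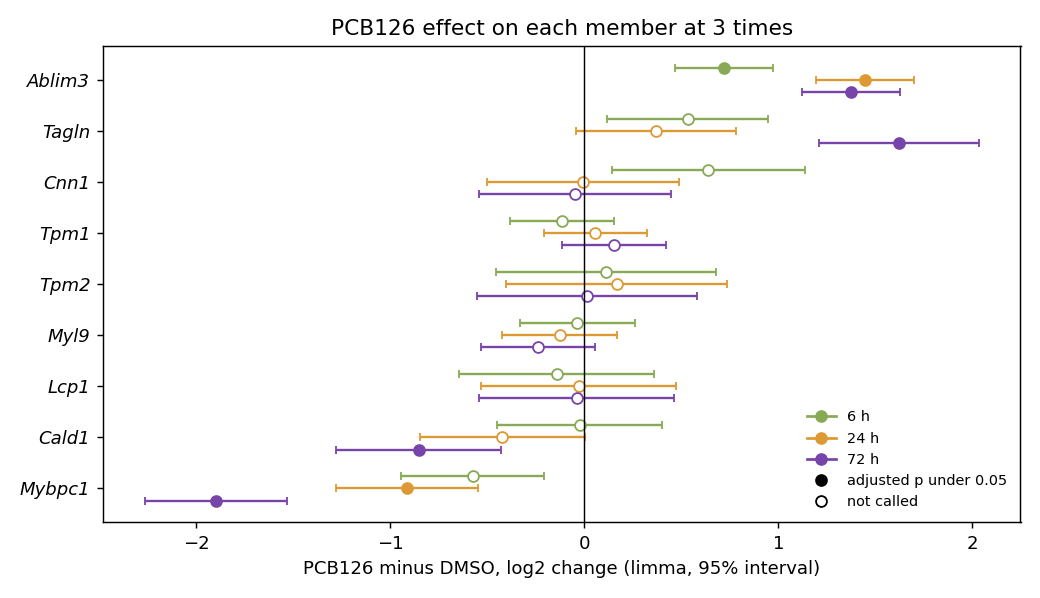
Log2 change of each measured gene with PCB126 against DMSO at 6 h (green), 24 h (orange) and 72 h (purple), from limma. Points are changes, bars 95% intervals, and filled points passed an adjusted p under 0.05. Ablim3 is filled at all 3 times, Tagln and Cald1 at 72 h, Mybpc1 at 24 and 72 h, and the intervals of Tpm1, Tpm2, Myl9 and Lcp1 cross 0 throughout.

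Ablim3 encodes an actin-binding LIM protein that ties actin filaments to other proteins through its LIM domains. Its DMSO values stayed between 4.81 and 5.16 at all times. With PCB126 they were 5.90, 5.92 and 5.63 at 6 h, 6.30, 6.48 and 6.59 at 24 h and 6.42, 6.45 and 6.39 at 72 h. No treated array overlapped any DMSO array. Ablim3 was 1.65-fold higher at 6 h (log2 change 0.72, SE 0.119, limma adjusted p = 0.00851), 2.73-fold at 24 h (1.45, adjusted p = 2.20e-06) and 2.59-fold at 72 h (1.37, adjusted p = 1.30e-06).

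The 3 DMSO groups of Ablim3 overlapped (means 5.01, 5.05 and 5.10), PCB126 at 6 h (5.82 ± 0.16, SD, n = 3) lay above them, and PCB126 at 72 h (6.42 ± 0.03) and 24 h (6.45 ± 0.14) overlapped at the top. The effect was larger by 0.65 at 72 h than at 6 h (SE 0.168), which did not pass the test of that difference (limma adjusted p = 0.0885). The call at 6 h was close to the threshold. It ended without replicate 1 or 3 of DMSO (adjusted p = 0.0505 and 0.0543) or replicate 1 or 2 of PCB126 at 6 h (0.0620 and 0.0590), and with the arrays at 6 h fitted alone (0.153).

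Mybpc1 encodes the slow skeletal form of myosin-binding protein C, which binds myosin and actin in the sarcomere. Its DMSO values were 5.97, 5.35 and 5.89 at 6 h, 6.57, 6.37 and 6.53 at 24 h and 8.09, 8.06 and 8.02 at 72 h. With PCB126 they were 5.04, 5.03 and 5.42 at 6 h, 5.40, 5.85 and 5.48 at 24 h and 6.37, 5.99 and 6.12 at 72 h. At 24 and 72 h every treated array lay below every control, and at 6 h 1 treated array overlapped. Against DMSO, Mybpc1 was 1.88-fold lower at 24 h (log2 change -0.91, SE 0.173, limma adjusted p = 0.00438) and 3.73-fold lower at 72 h (-1.90, SE 0.173, adjusted p = 2.16e-06), while the change of -0.58 at 6 h was not called (adjusted p = 0.251).

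In the control cultures Mybpc1 rose 4.99-fold from 6 to 72 h (log2 change 2.32, SE 0.173, limma adjusted p = 3.73e-06). With PCB126 it rose by 0.997 (adjusted p = 0.00236). In order of mean, PCB126 at 6 h (5.16 ± 0.22, SD, n = 3), PCB126 at 24 h (5.57 ± 0.24) and DMSO at 6 h (5.74 ± 0.34) each overlapped the next. Above these, PCB126 at 72 h (6.16 ± 0.19) and DMSO at 24 h (6.49 ± 0.11) overlapped by 1 array, and DMSO at 72 h (8.06 ± 0.04) stood apart.

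Mybpc1 was also the one measured gene whose PCB126 effect differed between 72 and 6 h by limma (difference -1.32, SE 0.245, adjusted p = 0.0152), a test that called 0.948% of all genes, 0.43% with a positive and 0.518% with a negative difference. The F-test over the 3 times gave an adjusted p of 0.0372 (limma), where 0.565% of all genes were called. That second call ended when any of 14 of the 18 arrays was left out, with adjusted p up to 0.102, whereas the first held without each of the 12 arrays it used. The first ended with the 12 arrays at 6 and 72 h fitted alone (adjusted p = 0.0567). Markers of skeletal and cardiac muscle were compared with Mybpc1. None of the 13 was called by limma in any pairwise comparison. Their mean level in DMSO was 4.73 to 4.84 at 6 h, 4.76 to 4.85 at 24 h and 4.91 to 4.97 at 72 h. With PCB126 it was 4.71 to 4.91, 4.78 to 4.93 and 4.87 to 4.91. All 13 were below the median gene level, with Myog at 5.22 and Ttn at 3.78, and 10 of them were above the median probe set level.

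Lcp1 encodes L-plastin, an actin-bundling protein best known from blood cells. At 6 h its values were 4.94, 5.11 and 5.50 with DMSO and 4.82, 4.72 and 5.59 with PCB126, and at 24 h they were 5.73, 6.05 and 5.60 with DMSO and 5.53, 6.15 and 5.62 with PCB126. At 72 h they were 7.75, 7.72 and 7.74 with DMSO and 7.91, 7.31 and 7.87 with PCB126. Treated and control arrays overlapped at each time, and both groups at 72 h lay above all earlier arrays. The PCB126 changes were -0.14, -0.03 and -0.04, with a 95% interval at 72 h of -0.54 to 0.46.

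Over time Lcp1 rose 5.87-fold with DMSO from 6 to 72 h (log2 change 2.55, SE 0.237, limma adjusted p = 1.97e-05) and 6.30-fold with PCB126 (2.66, adjusted p = 5.10e-06). All 22 of its brighter probe sets were higher in DMSO at 72 h, by 0.67 to 3.52. The 10 leukocyte markers, which lay low, were not seen to rise with it, and any part of such cells in the rise of Lcp1 was not tested. None was called by limma in any pairwise comparison, and their mean level was 4.11 to 4.41 over all arrays. All lay below the median gene level, with Ptprc, the leukocyte common antigen, at 3.03, and 8 of the 10 lay above the median probe set level.

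From 6 to 72 h 2 of the 9 genes changed in the control cultures, both upward, where 4.14% of all genes were called, 0.865% higher and 3.27% lower. With PCB126 4 of 9 changed from 6 to 72 h, beside 5.66% of all genes, 1.49% higher and 4.17% lower. Those were Lcp1, Mybpc1 and Ablim3 (0.60, limma adjusted p = 0.00611) upward and Cald1 (-0.91, adjusted p = 0.0123) downward. The Cald1 change over time was not called without replicate 2 of PCB126 at 6 h (adjusted p = 0.0735), or without replicate 2 (0.0634) or 3 (0.0578) at 72 h. Fitting the PCB126 arrays at 6 and 72 h alone left Lcp1 and Mybpc1 called (Ablim3 0.126 and Cald1 0.148). The DMSO arrays at 72 h serve both the comparison with PCB126 at 72 h and the comparison with DMSO at 6 h, so these are not independent of each other.

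The groups did not overlap for 3 of 9 genes at 6 h (16.9% of all genes), 3 at 24 h (21.8%) and 4 at 72 h (20.2%). From 6 to 72 h they did not overlap for 4 of 9 genes with DMSO (26% of all genes) and 6 with PCB126 (20.8%).

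The probe sets of a gene lie along its exons, and their changes were compared within each gene. At 72 h 22 of the 23 brighter Ablim3 probe sets were higher, with a median of 1.17, and 29 of the 30 brighter Mybpc1 probe sets were lower, with a median of -2.07. Single probe sets within both genes differed widely. Within Ablim3, probe set 6180941 had means of 4.72 with DMSO and 7.31 with PCB126 at 72 h (2.59), and its change at 24 h was 2.78. Probe set 6045265 of the same gene had means of 7.09 and 7.01 at 72 h. Within Mybpc1 at 72 h, probe set 6521148 had means of 7.49 with DMSO and 4.59 with PCB126 (-2.90), and probe set 6445206 had 5.23 and 5.81 (0.58). From 6 to 72 h in DMSO these 2 rose by 3.38 and 0.21, beside 2.32 for the gene value. Probe set 6238054 of Mybpc1 stayed at means of 8.24 to 8.45 in all 6 groups. Whether probe sets that followed neither time nor treatment report the transcript of their gene was not tested.

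An F-test for unequal change among a gene's probe sets (limma diffSplice) used genes with at least 2 brighter probe sets. This F-test called Ablim3 at 6, 24 and 72 h (adjusted p = 0.00331, 7.84e-11 and 5.23e-08) and Mybpc1 at 24 and 72 h (0.0266 and 1.63e-14). It called 0.109%, 1.03% and 2.53% of 14715 genes at the 3 times, and on simulated data it made more false calls than its threshold allows. The F-test call of Ablim3 at 6 h ended without replicate 1 of PCB126 or 3 of DMSO, and at 24 h 1 of the 2 calls ended without replicate 1 of PCB126 or any 1 of the DMSO arrays. A stricter test of each probe set minus the median of the others, added after the data had been seen, called 0.0136%, 0.129% and 0.516% of genes. It kept Mybpc1 at 72 h (adjusted p = 0.00944), and Ablim3 did not pass (0.0895 at 24 h and 0.0578 at 72 h).

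**Figure D3:**
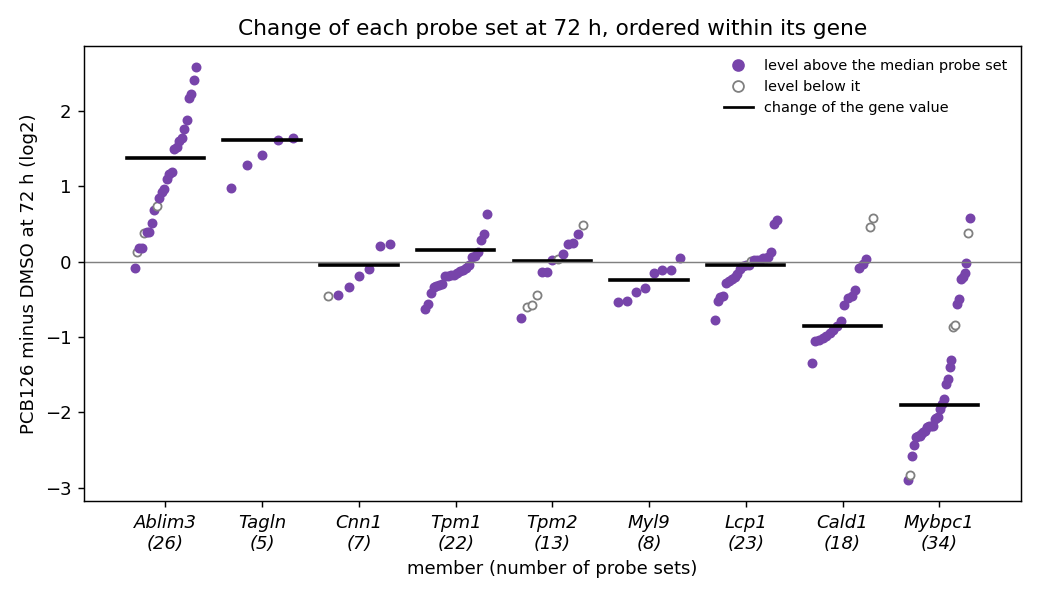
Log2 change at 72 h (PCB126 minus DMSO) of each probe set, ordered within its gene, with the number of probe sets in brackets. Filled points lie above the median probe set level of 4.03, open points below it, and black lines are the change of the gene value. Tagln has all 5 points between 0.98 and 1.64, while Ablim3 reaches from -0.08 to 2.59 and Mybpc1 from -2.90 to 0.58.

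The genes whose values followed a member most closely over the 18 arrays were listed for the 3 members with the largest F statistic over the 6 groups. For Ablim3 they were Cpox, coproporphyrinogen oxidase (Pearson r = 0.983), Cyp1a1, a cytochrome P450 (0.981), and Ahrr, a repressor of the aryl hydrocarbon receptor (0.964). For Mybpc1 they were Il17re, an interleukin receptor subunit (0.939), Enpp2, which encodes autotaxin (0.937), and Thbs2, thrombospondin 2 (0.917). For Lcp1 they were Nupr1, a stress-induced nuclear protein (0.922), Thbs2 (0.921) and Pnoc, prepronociceptin (0.901). The 18 points share the 6 groups, so these values reflect the 6 group means as well as single arrays.

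The 3 lists that follow were chosen with earlier results of these data known, so their directions are no independent evidence. The first list held other smooth muscle genes, here called contractile genes although some, such as the integrin subunit Itga8, have other roles. Every call on it was downward. Over all genes 0.241%, 3.14% and 4.14% were called lower at 6, 24 and 72 h. Of the 15 measured on this list, 0 were called by limma at 6 h, and at 24 and 72 h 3 were lower and 0 higher. At 72 h these were Itga8 (listed as RGD1564327, an integrin subunit, -1.28, SE 0.137), Mylk, the myosin light chain kinase (-0.90, SE 0.177), and Smtn, smoothelin (-0.64, SE 0.109), with adjusted p under 0.05. At 24 h the same 3 genes gave -0.59, -0.71 and -0.52. At 24 h the calls of Mylk and Itga8 ended when any of 4 arrays was left out, with adjusted p reaching 0.131 for Mylk and 0.0952 for Itga8. With the arrays of 1 time fitted alone, Mylk and Smtn were not called at 72 h (0.0710 and 0.0588), nor Mylk, Itga8 and Smtn at 24 h (0.105, 0.0722 and 0.0788). Of the 11 other settings at 24 h, 4 ended the call of Mylk and 2 that of Itga8. Myh11, the smooth muscle myosin heavy chain, and Myocd, myocardin, were not called at 72 h, with changes of -0.03 and -0.26, and the median over the list was -0.19 beside 0.00 over all genes. Their means over the 18 arrays, 4.73 and 4.23, were near the median probe set level of 4.03, where a fall could hardly show. Actg2, Lmod1, Synpo2, Pdlim3, Ppp1r12b, Kcnmb1 and Pln also lay low, from 4.33 to 5.28. Itga8, Mylk and Smtn had means of 8.59, 8.60 and 8.67, and the uncalled Des, Fhl1 and Csrp1 8.69, 9.03 and 11.23.

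Of 22 measured relatives of the members, 0 were called by limma at 6 h and 1 was lower at 24 h (Ablim1, -1.16). At 72 h 2 were higher and 3 lower by limma. The share called over all genes was 0.494%, 4.84% and 7.44% at 6, 24 and 72 h. Ablim1, a paralogue of Ablim3, was lower with PCB126 than with DMSO at 72 h, by 1.49 on the log2 scale (SE 0.166), while Ablim3 was higher. Tagln2, the transgelin of non-muscle cells, was higher by 0.94 (SE 0.137). Mybpc3, the cardiac myosin-binding protein C, was higher by 0.66 (SE 0.167), while Mybpc1 was lower. Myh10, non-muscle myosin heavy chain IIB, was lower (-0.65), as was Cnn3, acidic calponin (-0.38). The Mybpc3 call ended when any of 4 arrays was left out (highest adjusted p 0.101). That of Cnn3 ended for any of 5 arrays (highest 0.138) and under 4 other settings, the replicate block among them (0.0520), with adjusted p up to 0.276. With the arrays at 72 h fitted alone, the calls of Myh10 (0.0979) and Mybpc3 (0.0781) ended too. The actins Actb and Actg1 were not called, with changes of 0.00 and 0.02.

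Serum response factor, its cofactor Mkl1 and actin-linked genes formed a list with 21 measured genes. Of these, 1 was higher at 6 h, 2 at 24 h and 5 at 72 h by limma, with 0 lower. Over all genes 0.253%, 1.7% and 3.3% were called higher at these times. Cyr61 (current symbol Ccn1), a matricellular protein, was higher at all times (0.80, 0.75 and 0.50), and Vcl, vinculin of focal adhesions, at 24 and 72 h (0.52 and 0.64). At 72 h the actin crosslinker Actn4 (0.85) and the matricellular Ctgf (0.76) were also higher, and so was Actn1 (0.41). Calls ended for Actn1 when any of 5 arrays was left out (highest adjusted p 0.130), for Cyr61 at 72 h without 3 (up to 0.0728) and for Vcl at 24 h without 5 (up to 0.198). Fitting the arrays of 1 time alone ended the calls of Cyr61 at 6 h (0.113) and, at 72 h, of Actn1 (0.244), Cyr61 (0.213), Vcl (0.0836) and Ctgf (0.0686). Of the 11 other settings, 3 ended the call of Actn1 at 72 h and 3 that of Vcl at 24 h (up to 0.187). Srf and Mkl1 were not called at 72 h (0.04 and -0.21), and the median of the list there was 0.05.

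**Figure D4:**
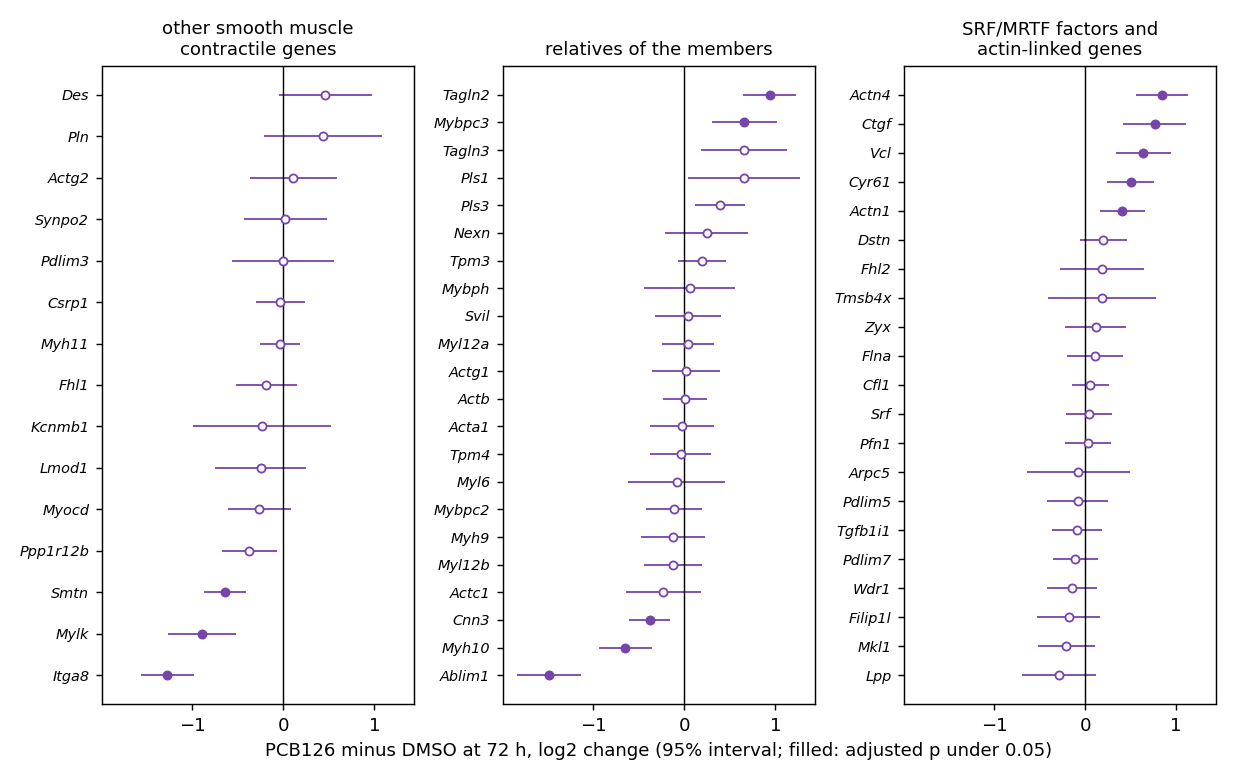
Log2 change at 72 h (PCB126 minus DMSO, limma) of the measured genes of the 3 lists, with 95% intervals. Filled points passed an adjusted p under 0.05. In the contractile list the 3 filled points lie below 0, and in the actin-linked list the 5 filled points lie above 0. The relatives show 2 above and 3 below. All 3 lists were chosen with earlier results of these data known.

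Between 6 and 72 h in DMSO, 0 of the 15 contractile genes and 3 of the 22 relatives were called by limma. So were 3 of the 21 actin-linked genes. Over all genes the share called was 4.14% in DMSO and 5.66% with PCB126 from 6 to 72 h. Svil, supervillin, was lower (-0.87), as were Tagln2 (-0.52), Pdlim5 (-0.74), Actn4 (-0.70) and Vcl (-0.69), and Ablim1 was higher (0.64). Each of these calls ended without at least 2 of the 6 arrays, with adjusted p up to 0.204. With PCB126 over the same time 2, 1 and 4 were called, namely Smtn (-0.61), Itga8 (-0.67), Mybpc3 (0.79), Pdlim5 (-0.78), Lpp (-0.68), Tgfb1i1 (-0.57) and Pdlim7 (-0.46). The calls of Lpp and Pdlim7 each ended without 5 arrays (adjusted p up to 0.189 and 0.141), that of Tgfb1i1 without 2 (up to 0.0685) and that of Itga8 without 1, replicate 1 at 6 h (0.0510). With the compared groups fitted alone, none of these genes was called over time, with adjusted p of 0.0534 to 0.0945 in DMSO and 0.0552 to 0.240 with PCB126.

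The mean level of fibroblast and myofibroblast markers was lower with PCB126 at each time. At 6 h it was 7.20 to 7.43 on the DMSO arrays and 6.98 to 7.16 on the PCB126 arrays. None of the 9 markers was called by limma at 6 h. At 24 h 1 of 9 was lower by limma, Postn (-1.76), and the mean level of the list was 7.09 to 7.31 on the DMSO arrays and 6.90 to 7.05 on the PCB126 arrays. At 72 h their mean level over 9 genes was 7.07 to 7.31 on the DMSO arrays and 6.47 to 6.68 on the PCB126 arrays. At that time 2 of 9 were lower by limma, Postn (-1.70) and Col3a1 (-1.22). The median change over the 9 markers was -0.20, -0.16 and -0.33 at 6, 24 and 72 h. The list mean was not tested, and 4 of the 9 lay above the median gene level. Over all genes 3.14% were called lower at 24 h and 4.14% at 72 h. From 6 to 72 h Col1a2 was lower with DMSO (-0.92), and Col1a2 (-0.77) and Col3a1 (-1.38) were lower with PCB126, where the Col1a2 call ended with the compared groups fitted alone (adjusted p = 0.0754). Of 4 endothelial markers Tek alone was called by limma, lower at 24 h (-1.31) and 72 h (-1.53). The mean level of the 4, Tek included, was 5.43 to 5.69 with DMSO and 5.12 to 5.39 with PCB126 at 24 h. At 72 h it was 5.58 to 5.80 and 5.21 to 5.30. Their median change was smaller than that of Tek, at -0.15 at 24 h and -0.11 at 72 h. The contribution of these markers in the changes of Tagln, Cald1, Mybpc1 and the contractile genes was not tested, and in bulk RNA a smaller number of cells of a kind and less RNA per cell cannot be told apart.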

How the data were processed

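RNA of 18 cultures was measured on Affymetrix rat exon arrays. The deposited matrix holds log2 values made by the authors with Affymetrix Power Tools 1.12.0 and RMA, according to the submitters' processing notes. RMA removes background, normalises across arrays and reduces the probes of each probe set to a single value. Its version and the array build are not given in the sources used here. Such values compress changes of dim probe sets, and the number of arrays limits the precision.

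Of 1044112 probe sets, 223110 were paired with 1 symbol, 3523 with several and 817479 with none in the platform annotation. The latter 2 kinds were left out, and 16988 genes remained, with a median of 10 probe sets. Differences were tested with limma 3.58.1 in R 4.3.3 (helper packages: data.table, at version 1.17.8, then matrixStats 1.5.0) on all 18 arrays with 1 mean per group, 12 residual and 3.89 prior degrees of freedom, two-sided. Figures were drawn with matplotlib 3.10.9. The tests were tested on simulated data.

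The members and lists were chosen with earlier results of these data known. All 10 members were named, the 3 most similar genes for the 3 members with the largest F statistic, the called genes of each list (at most the 4 largest changes per comparison) and, for members called for unequal probe set changes, the probe sets farthest from the rest of their gene. A few list genes that were not called, and Actn1 and Cnn3 as the fifth by size, are named in addition. Promoter windows came from RefSeq (GRCr8), which was used for names and these windows alone. Alternatives were a replicate block, averaging over probe sets, only bright probe sets or only bright genes, genes with at least 4 probe sets, 2 other scalings, an intensity trend, array weights, the compared groups alone, and leaving out arrays.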

Additional observations from a re-analysis of the deposited data

Results flagged for a closer look

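Mybpc1 was marked because its response to PCB126 differed between times. The log2 change with PCB126 was -0.58 at 6 h, -0.91 at 24 h and -1.90 at 72 h, and the difference between 72 and 6 h was -1.32 (SE 0.245, limma adjusted p = 0.0152). The F-test over the 3 times gave an adjusted p of 0.0372 (limma). Its level in DMSO rose from 5.74 ± 0.34 to 8.06 ± 0.04 over the same time (SD, n = 3), and with PCB126 from 5.16 ± 0.22 to 6.16 ± 0.19.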

How the results depend on the processing

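The 15 calls of members kept their direction under the other settings and with each array left out. Of 164 values under other settings 159 stayed called and 5 did not, and of 108 values with 1 array left out 85 stayed called and 23 did not. With the compared groups fitted alone, 0 members were called at 6 h, 2 from 6 to 72 h with PCB126 and 0 for the difference of effects between 72 and 6 h. From 6 to 72 h with PCB126, 5 were called with the mean over probe sets, centred arrays or quantile normalisation, Tagln being the added one. That difference was called for 2 members with the mean over probe sets or an intensity trend and for 3 with quantile normalisation or array weights. The F-test over times called 2 members with the mean over probe sets, bright genes alone, an intensity trend or array weights, and 3 with centred arrays or quantile normalisation. Unequal probe set change was called for 0 members at 6 h with Simes' method and, with the stricter test, for 0 at 6 h, 0 at 24 h and 1 at 72 h. At 24 h it was called for 1 without the PCB126 arrays numbered 1 at 24 and 72 h. The cause of these shifts was not tested. The stricter test was chosen after the data had been seen.

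With 1 array left out, the number called ranged from 0 to 1 at 6 h, 2 to 2 at 24 h, 3 to 4 at 72 h, 2 to 2 over time in DMSO and 3 to 4 with PCB126. It was 1 to 1 for the difference of effects, 0 to 1 for the F-test and 0 to 1, 1 to 2 and 2 to 3 for unequal probe set change at 6, 24 and 72 h.

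Replicate numbers are shared by the groups. The deviations of same-numbered arrays correlated by only 0.00 to 0.17, all positive and most below 0.1, so the numbers were not taken as pairing. With the replicate block the members called were 1, 2 and 4 at 6, 24 and 72 h, as without it, and it changed no member's call. Centring moved the median change of all genes by 0.15 from 6 to 72 h in DMSO and by 0.13 with PCB126.

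Some changes that were never called had the opposite sign. With the mean over probe sets Myl9 gave 0.26 at 6 h and -0.20 over time with PCB126, Tpm1 gave -0.13 at 24 h and -0.12 at 72 h, and Tpm2 gave -0.0883 at 72 h and 0.12 over time in DMSO. With bright probe sets alone Tpm2 gave -0.10 at 24 h, and 0.10 and 0.0841 over time in DMSO and with PCB126. With each array centred on the median gene, Myl9 (0.0026) and Cald1 (0.0157) at 6 h, Cnn1 (0.0355) and Lcp1 (0.0134) at 24 h, and Tpm1 (0.0322), Tpm2 (0.12), Cald1 (0.0677) and Ablim3 (0.0981) over time in DMSO turned. With quantile normalisation Myl9 gave 0.0059 at 6 h and Cnn1 0.0171 at 24 h. With array weights Lcp1 gave 0.0215 at 24 h and 0.065 at 72 h, and Tpm2 0.0052 for the difference of effects. Without the PCB126 arrays numbered 1 at 24 and 72 h, Cnn1 gave 0.20 at 24 h and 0.0096 at 72 h, Lcp1 gave 0.0892 at 24 h and -0.0062 for the difference of effects, and Myl9 gave -0.0101 over time with PCB126.

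Uncalled changes whose sign turned with 1 array left out spanned these ranges. At 6 h Tpm2 spanned -0.20 to 0.349, Myl9 -0.117 to 0.0442, Cald1 -0.17 to 0.0545 and Lcp1 -0.414 to 0.0197. At 24 h Cnn1 spanned -0.159 to 0.199, Tpm2 -0.0228 to 0.315, Myl9 -0.259 to 0.00062 and Lcp1 -0.218 to 0.102. At 72 h Cnn1 spanned -0.287 to 0.102, Tpm2 -0.116 to 0.133 and Lcp1 -0.149 to 0.154. Over time Tpm2 spanned -0.282 to 0.0972 in DMSO and -0.368 to 0.181 with PCB126, and Myl9 -0.0309 to 0.131 with PCB126. For the difference of effects Tpm2 spanned -0.335 to 0.214 and Lcp1 -0.0600 to 0.374.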
